A study of Homo sapiens with 13 samples.

Results

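RSF1 and 9 genes of the ISWI family of chromatin remodellers were followed through 13 RNA-seq libraries of 2 ovarian carcinoma cell lines. The 10 genes were chosen by symbol (RSF1, SMARCA5, SMARCA1, BAZ1A, BAZ1B, BAZ2A, BPTF, CECR2, CHRAC1 and POLE3), and all 10 were found among the 62703 genes of both count tables. The question was whether the level of the partner genes followed that of RSF1. SKOV3 cells, an ovarian carcinoma line from ascites, overexpressed RSF1 (3 libraries), overexpressed RSF1delUAB (3 libraries) or carried a control vector (3 libraries). The labels name no treatment for SKOV3, and they do not say whether a SKOV3 genotype was 1 clone or a pool. RSF1delUAB is named for the loss of the UAB region, the stretch through which RSF1 binds ubiquitinated histone H2A. OVCAR3 cells, a serous carcinoma line also derived from ascites, expressed a UAB peptide (2 libraries) or a scramble control (2 libraries). Both OVCAR3 groups received 2000 ng/mL doxycycline for 6 days, so the drug was shared by the peptide cells and their controls.

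ISWI remodellers slide nucleosomes along DNA with 1 of a pair of related ATPases, SMARCA5 (SNF2H) or SMARCA1 (SNF2L). The ATPase is joined by a large regulatory subunit that names the complex: RSF1 in RSF, BAZ1A in ACF and CHRAC, BAZ1B in WICH, BAZ2A in NoRC, BPTF in NURF and CECR2 in CERF. CHRAC1 and POLE3 are small histone-fold proteins that join BAZ1A and SMARCA5 in CHRAC, and POLE3 is also a subunit of DNA polymerase epsilon. RSF1 lies in a stretch of chromosome 11q that is known to be amplified in some ovarian carcinomas.

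Levels are CPM, counts relative to the TMM-scaled total of their library, given as mean ± SD over 3 SKOV3 or 2 OVCAR3 libraries per group. The SKOV3 libraries held 15194678 to 18748009 counts each and the OVCAR3 libraries 18160558 to 24026993. Separate cultures are not mentioned in the labels, so each p-value rests on a spread between samples that may be technical. In bulk RNA, fewer cells with a transcript and less transcript per cell cannot be told apart. PAX8, a Muellerian lineage factor, and the epithelial keratin KRT8 had at least 274 and 322 CPM in every SKOV3 library and at least 607 and 3432 CPM in every OVCAR3 library. The leukocyte gene PTPRC was at or below 1.15 CPM in all 13 libraries. WT1, which marks many serous carcinomas, reached 3.58 CPM at most in SKOV3 and lay between 10.43 and 63.1 CPM in OVCAR3. The epithelial gene EPCAM was at most 21.9 CPM in SKOV3 and at least 301 CPM in OVCAR3. The endothelial gene PECAM1 reached 3.58 CPM at most in SKOV3 and 0.691 CPM at most in OVCAR3. RSF1 replicate 1 stood apart among the SKOV3 libraries: the chi-square of its counts against those of its group mates was 13.8 and 15.8 per degree of freedom, against 2.24 to 3.85 for the other pairs of SKOV3 replicates. It was 15.03 in the OVCAR3 control pair and 12.6 in the UAB pair. It also held less of long genes.

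RSF1 itself (ENSG00000048649, chr11:77660009-77820869 on GRCh38, minus strand, 17 merged exon blocks) checked the SKOV3 labels. It was at 631, 775 and 749.8 CPM in the 3 RSF1 libraries, at 459, 496 and 509 CPM in the 3 RSF1delUAB libraries, and at 42.2, 47.5 and 42.2 CPM in the 3 control libraries. The 3 groups did not overlap, and the RSF1 libraries were the highest. RSF1 rose by a log2 fold change of 4.03 (SE 0.087, adjusted p = 1.96e-18) with RSF1 and of 3.47 (SE 0.085, adjusted p = 1.09e-17) with RSF1delUAB, both against control. RSF1 over RSF1delUAB was 0.56 (SE 0.075, adjusted p = 5.07e-06). The counts do not separate transcripts of the construct from those of the cell's own gene. The 70 other genes tested within 5 Mb of RSF1 had a median log2 fold change of 0.96 in RSF1 and 0.69 in RSF1delUAB cells against control, and the medians over 11q were 0.24 and 0.14.

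The RSF1 level in OVCAR3 did not differ detectably with the peptide. It was at 787 and 586 CPM in the UAB libraries, against 564 and 707 CPM in the control libraries, and the groups overlapped. The log2 fold change was 0.11 (SE 0.158, adjusted p = 0.724, 95% interval −0.23 to 0.45). The labels do not give the sequence of the peptide construct, so its own reads cannot be told apart from those of RSF1. The 2 tables were scaled separately, and on their own scales the OVCAR3 controls averaged 636 ± 101 CPM of RSF1 and the SKOV3 controls 44.0 ± 3.08 CPM.

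**Figure D1:**
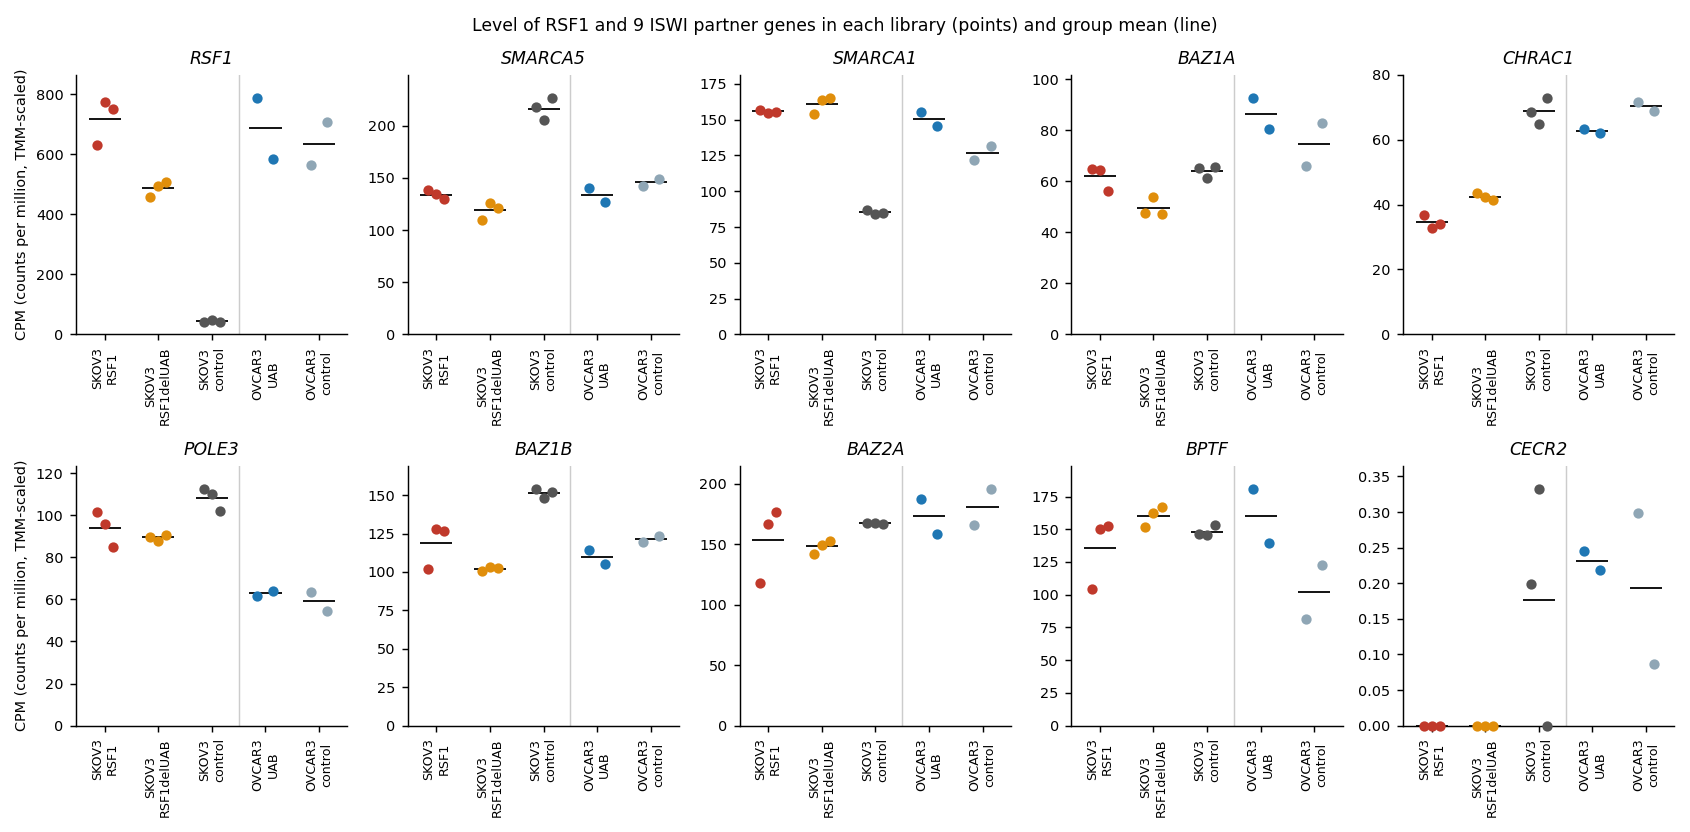
Level of RSF1 and the 9 partner genes in each of the 13 libraries, as scaled CPM on linear axes that start at 0, with 1 panel per gene and 1 point per library; bars are group means. RSF1 separates the 3 SKOV3 groups, SMARCA5 and CHRAC1 are lower and SMARCA1 is higher in both RSF1 groups than in SKOV3 controls, and CECR2 lies at or near 0 throughout.

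The partner genes did not move as 1 group with RSF1 in SKOV3. Against control, 6 of the 9 members with enough counts passed the threshold (adjusted p under 0.05) with RSF1, RSF1 included, where 67.3% of all 16735 genes tested passed it (34.3% higher and 32.9% lower). Without RSF1, 1 of 8 rose (SMARCA1), 4 fell (SMARCA5, BAZ1B, CHRAC1 and POLE3) and 3 did not pass, with a median log2 fold change of −0.16 against 0.02 over all genes. With RSF1delUAB, 7 of 9 passed, where 66.6% of all genes did (34.5% higher and 32.1% lower). Without RSF1, 1 of 8 rose (SMARCA1), 5 fell (the same 4 genes and BAZ1A) and 2 did not pass, with a median of −0.32 against 0.02 over all genes. Both comparisons share the 3 control libraries. The shares called in either direction without RSF1, 62.5% and 75%, lay near those of all genes, and among the 8 partners more fell than rose.

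The ATPases of the family moved in opposite directions. SMARCA5 (ENSG00000153147, chr4:143513702-143557486, plus strand), the catalytic partner of RSF1 in RSF, was at 138, 135 and 129 CPM in RSF1, at 110, 126 and 121 CPM in RSF1delUAB and at 218, 205 and 227 CPM in control libraries. Every library with a construct lay below every control. SMARCA5 fell by 0.69 on the log2 scale with RSF1 (SE 0.068, adjusted p = 2.09e-08) and fell by 0.87 with RSF1delUAB (SE 0.068, adjusted p = 7.56e-10). The other genes of 4q moved as far: 426 tested genes of the arm had a median log2 fold change of −0.69 with RSF1 and of −0.73 with RSF1delUAB, and within 5 Mb the medians of 41 genes were −0.70 and −0.69. Relative to its chromosome arm, SMARCA5 was at 0.02 with RSF1 (adjusted p = 0.848) and at −0.14 with RSF1delUAB (adjusted p = 0.0703), so both calls ended. DNA copy number was not analysed here, and the part of the arm in the result was not tested.

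SMARCA1 (ENSG00000102038, chrX:129446501-129523500, minus strand), the ATPase of NURF and CERF, had 157, 155 and 156 CPM in RSF1, 154, 164 and 165 CPM in RSF1delUAB and 86.9, 83.9 and 84.7 CPM in control libraries. The libraries with a construct overlapped each other and lay well above the controls. SMARCA1 rose by 0.87 with RSF1 (SE 0.063, adjusted p = 1.81e-10) and by 0.92 with RSF1delUAB (SE 0.062, adjusted p = 7.74e-11). Its neighbourhood moved the other way or little: the median over 309 genes of Xq was −0.19 with RSF1 and −0.05 with RSF1delUAB. SMARCA1 is the one partner gene that was higher in both constructs.

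The 250 bases upstream of the RefSeq start (build GRCh38.p14) are shown for RSF1, for the ATPase gene that fell, for the one that rose and for BAZ1B, which fell with SMARCA5. Capitals mark GC boxes (GGGCGG, or CCGCCC on the other strand) and CCAAT boxes (CCAAT, or ATTGG on the other strand), which do not overlap here. The windows are chr11:77820723-77820972 (minus strand), chr4:143513452-143513701 (plus), chrX:129523491-129523740 (minus) and chr7:73522294-73522543 (minus).
RSF1: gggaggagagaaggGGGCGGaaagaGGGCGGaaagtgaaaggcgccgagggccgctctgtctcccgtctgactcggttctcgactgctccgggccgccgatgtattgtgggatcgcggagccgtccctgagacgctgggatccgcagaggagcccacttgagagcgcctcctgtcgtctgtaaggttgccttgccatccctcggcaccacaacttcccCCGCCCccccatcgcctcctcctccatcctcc
SMARCA5: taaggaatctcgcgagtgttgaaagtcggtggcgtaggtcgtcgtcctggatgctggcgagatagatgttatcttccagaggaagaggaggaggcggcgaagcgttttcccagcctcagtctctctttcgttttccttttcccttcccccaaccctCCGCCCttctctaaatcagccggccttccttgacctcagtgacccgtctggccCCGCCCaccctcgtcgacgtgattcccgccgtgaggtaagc
SMARCA1: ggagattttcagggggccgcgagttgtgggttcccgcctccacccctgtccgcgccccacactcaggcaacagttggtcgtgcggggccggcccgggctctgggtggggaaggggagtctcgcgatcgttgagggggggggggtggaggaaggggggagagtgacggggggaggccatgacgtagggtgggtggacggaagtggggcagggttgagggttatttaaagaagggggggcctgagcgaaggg
BAZ1B: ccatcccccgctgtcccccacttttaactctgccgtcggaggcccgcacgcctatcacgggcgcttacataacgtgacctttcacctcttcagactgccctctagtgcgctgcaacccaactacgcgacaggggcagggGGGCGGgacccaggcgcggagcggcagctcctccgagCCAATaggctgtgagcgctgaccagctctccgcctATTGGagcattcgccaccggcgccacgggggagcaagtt
The RSF1 window holds 3 GC boxes, that of SMARCA5 2 and that of BAZ1B 1 with 2 CCAAT boxes, while that of SMARCA1 holds neither motif. Neither a TATA box (TATAAA) nor CCGGAA, a longer form of the ETS core GGAA, is in any of the 4, searched on both strands. GGAA alone was not counted. Over 35116 promoter windows of this length, 42.6% hold a GC box, 32.0% a CCAAT box, 14.5% CCGGAA and 10.7% the TATA box. CG pairs number 21 in RSF1, 20 in SMARCA5, 16 in SMARCA1 and 22 in BAZ1B, against a median of 11. Among the matched members not shown, POLE3, which fell with both constructs, has 3 windows with 0, 1 and 1 GC boxes. BAZ2A, which did not pass, has 2 windows with 1 GC box each, and CECR2 has 1 window with 0. A match is a description of the letters and not a site in use.

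Because SMARCA5 fell and SMARCA1 rose, the make-up of the ATPase pool differed between groups. Per length of exon (CPM per kilobase), SMARCA1 made up 68.0%, 68.2% and 69.2% of the summed level of the pair in the RSF1 libraries, 72.4%, 70.8% and 71.8% in RSF1delUAB, and 42.7%, 43.3% and 41.1% in control. Per length, SMARCA5 was thus the more abundant ATPase transcript in SKOV3 controls alone, and SMARCA1 in both groups with a construct. The order rests on the exon lengths used, 8146 bases for SMARCA5 and 4363 for SMARCA1. In CPM, SMARCA5 was also above SMARCA1 in both OVCAR3 control libraries. The summed level per length was 52.2 ± 0.701 with RSF1, 51.5 ± 2.33 with RSF1delUAB and 46.1 ± 1.503 in control. In OVCAR3, SMARCA1 made up 67.3% and 68.1% of the pair in UAB libraries, against 61.4% and 62.4% in control libraries. No test of these shares was made.

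**Figure D2:**
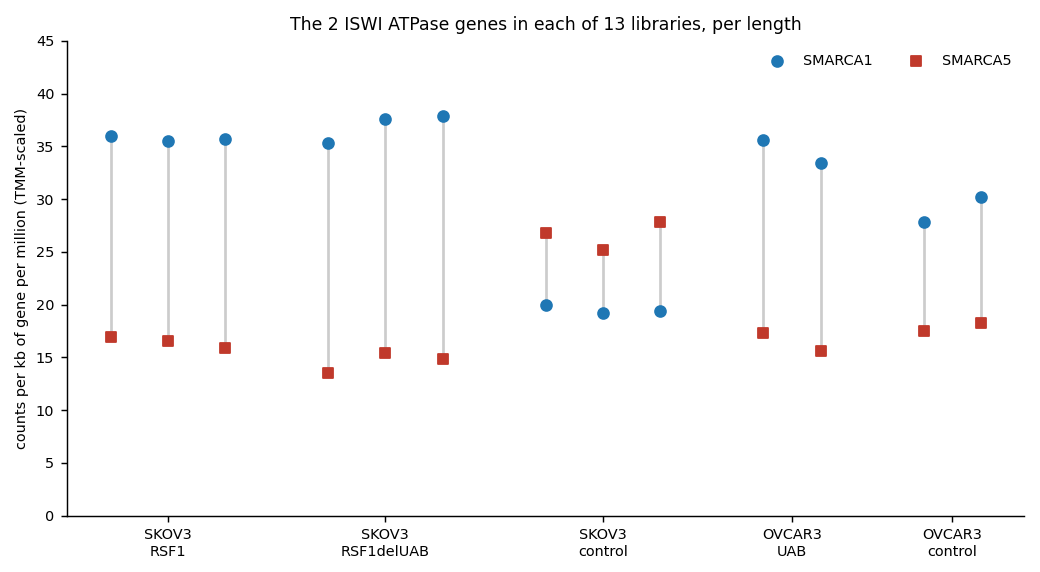
Level of SMARCA1 (circles) and SMARCA5 (squares) in each of the 13 libraries by group, in scaled CPM per kilobase of exon on an axis from 0, with a line joining the pair in 1 library. SMARCA5 lies above SMARCA1 in the 3 SKOV3 controls and below it in the other 10 libraries.

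The ratio of RSF1 to its own ATPase, per length, differed between SKOV3 groups mainly through the RSF1 counts. RSF1 was 16.4-fold and SMARCA5 0.619-fold of control in RSF1 cells. RSF1 per SMARCA5 was 2.81 ± 0.364 with RSF1, 2.15 ± 0.0789 with RSF1delUAB and 0.107 ± 0.0128 in SKOV3 controls. It was 2.67 ± 0.365 in UAB and 2.28 ± 0.298 in OVCAR3 control libraries. The exon length used for RSF1, 15579 bases, includes untranslated sequence that a construct may lack, so the ratio in cells with a construct has an unknown scale.

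In the ACF and CHRAC subunits, the histone-fold genes fell with both constructs and BAZ1A with 1 of them. CHRAC1 (ENSG00000104472, chr8:140511311-140517154, plus strand) was at 36.9, 32.8 and 34.0 CPM in RSF1, at 43.5, 42.4 and 41.5 CPM in RSF1delUAB and at 68.7, 65.0 and 72.8 CPM in control libraries. The 3 groups did not overlap, and the order was the reverse of that of RSF1. CHRAC1 fell by 0.99 on the log2 scale with RSF1 (SE 0.077, adjusted p = 5.34e-10) and by 0.70 with RSF1delUAB (SE 0.075, adjusted p = 7.61e-08). The 92 other tested genes within 5 Mb had medians of −0.28 with RSF1 and 0.04 with RSF1delUAB, so CHRAC1 lay 0.71 and 0.73 log2 units below its neighbours.

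POLE3 (ENSG00000148229, chr9:113407235-113410675, minus strand) was at 101, 96.1 and 85.0 CPM in RSF1, at 89.9, 87.9 and 90.8 CPM in RSF1delUAB and at 112, 110 and 102 CPM in control libraries. Both groups with a construct lay below the controls, by margins smaller than for CHRAC1. POLE3 fell by 0.20 with RSF1 (SE 0.073, adjusted p = 0.0212) and by 0.27 with RSF1delUAB (SE 0.073, adjusted p = 0.00270). The first call ended without control replicate 1 (−0.17), without control replicate 2 (−0.18) and without RSF1 replicate 3 (−0.12), with adjusted p of 0.0957, 0.0711 and 0.146. It also ended with upper quartile scaling (adjusted p = 0.166), library totals (0.0960), an offset per arm (0.446) and a fit of these 2 groups alone (0.0571).

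BAZ1A (ENSG00000198604, chr14:34752731-34875647, minus strand), which gives ACF its name, was at 64.8, 64.5 and 56.3 CPM in RSF1, at 47.7, 53.9 and 47.3 CPM in RSF1delUAB and at 65.0, 61.2 and 65.7 CPM in control libraries. The RSF1 and control libraries overlapped, and all 3 RSF1delUAB libraries were below them. BAZ1A differed from control by −0.05 with RSF1 (SE 0.079, adjusted p = 0.5997, 95% interval −0.21 to 0.12) and fell by 0.37 with RSF1delUAB (SE 0.079, adjusted p = 4.01e-04). The genes around it were higher in both: 556 genes of 14q had medians of 0.65 with RSF1 and 0.57 with RSF1delUAB. Relative to its arm BAZ1A was lower with RSF1 too, at −0.67 (adjusted p = 3.74e-07).

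Among the subunits of the other complexes, BAZ1B fell and BAZ2A and BPTF did not pass. BAZ1B (ENSG00000009954, chr7:73440406-73522293, minus strand), also known as Williams syndrome transcription factor, was at 102, 128 and 127 CPM in RSF1, at 101, 103 and 103 CPM in RSF1delUAB and at 154, 148 and 152 CPM in control libraries. Every library with a construct was below every control, and RSF1 replicate 1 was level with RSF1delUAB. BAZ1B fell by 0.35 with RSF1 (SE 0.077, adjusted p = 5.04e-04) and by 0.57 with RSF1delUAB (SE 0.077, adjusted p = 1.92e-06). The 500 genes of 7q had medians of −0.15 and −0.13, and the 66 other tested genes within 5 Mb had medians of 0.06 and −0.05.

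BAZ2A (ENSG00000076108, chr12:56595596-56636816, minus strand), the NoRC subunit known for silencing of ribosomal RNA genes, was at 118, 167 and 177 CPM in RSF1, at 142, 149 and 153 CPM in RSF1delUAB and at 168, 168 and 167 CPM in control libraries. RSF1 replicate 1 was the lowest of the 9 and RSF1 replicate 3 the highest. The log2 differences from control were −0.12 with RSF1 (SE 0.100, adjusted p = 0.279, 95% interval −0.33 to 0.08) and −0.18 with RSF1delUAB (SE 0.100, adjusted p = 0.126, interval −0.39 to 0.03). All 3 RSF1delUAB libraries lay below all 3 controls, and fitted on these 2 groups alone that difference passed (adjusted p = 0.00141). The RSF1 value was 0.03 without RSF1 replicate 1, and −0.23 without RSF1 replicate 3, where it passed at an adjusted p of 0.0462. Relative to its arm, whose 635 genes had a median of −0.44, BAZ2A was higher with RSF1, at 0.30 (adjusted p = 0.0135).

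BPTF (ENSG00000171634, chr17:67825503-67984378, plus strand), the largest subunit of NURF and a reader of methylated histone H3, was at 104, 150.2 and 152 CPM in RSF1, at 151, 162 and 167 CPM in RSF1delUAB and at 147, 145 and 153 CPM in control libraries. Only RSF1 replicate 1 lay away from the rest. The log2 differences from control were −0.13 with RSF1 (SE 0.101, adjusted p = 0.269, 95% interval −0.34 to 0.08) and 0.11 with RSF1delUAB (SE 0.100, adjusted p = 0.341, interval −0.10 to 0.32). Without RSF1 replicate 1 the first was 0.03, and fitted on these 2 groups alone the second passed (0.12, adjusted p = 0.0208).

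CECR2 (ENSG00000099954, chr22:17359949-17558151, plus strand) was near the limit of detection. Its counts were 0, 0 and 0 in RSF1, 0, 0 and 0 in RSF1delUAB and 3, 5 and 0 in SKOV3 control libraries. A count of 0 in a group allows up to 3 counts, or 0.0638 CPM over the RSF1 and 0.0573 CPM over the RSF1delUAB libraries, counting error alone. In OVCAR3 it had 5 and 4 counts in UAB and 7 and 2 in control libraries. It fell below the count filter of the main fit in both lines. The SKOV3 controls held 0.175 CPM over the group, above the limits of the construct groups, but control replicate 3 had 0 counts. These few counts do not settle a difference.

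**Figure D3:**
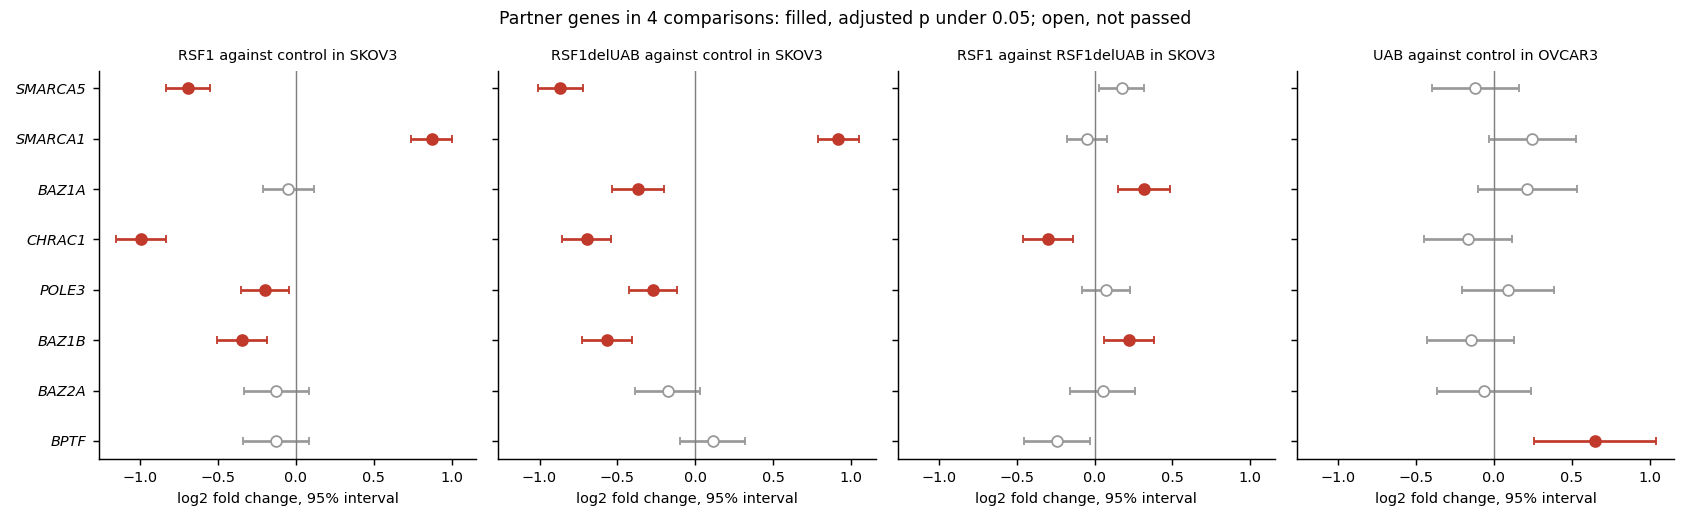
Log2 fold change of the 8 tested partner genes in each of the 4 comparisons, with 95% intervals from the fit over all genes; filled points passed an adjusted p of 0.05 and open points did not. Against control in SKOV3, SMARCA1 is the highest partner at 0.87 and 0.92, and SMARCA5 and CHRAC1 are the lowest.

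RSF1 and RSF1delUAB cells could also be compared directly. The groups differ in the level of RSF1 as well (0.56 on the log2 scale), and the labels do not say whether each was a clone or a pool. A difference between them therefore cannot be assigned to the UAB region alone. Of the 9 tested members 4 passed, where 38.6% of all genes did (18.5% higher and 20.2% lower): RSF1, BAZ1A and BAZ1B were higher and CHRAC1 lower in RSF1 than in RSF1delUAB cells. BAZ1A averaged 61.9 ± 4.82 CPM in RSF1 and 49.6 ± 3.68 CPM in RSF1delUAB cells, a log2 fold change of 0.32 (SE 0.079, adjusted p = 0.00317), with no overlap. CHRAC1 averaged 34.6 ± 2.12 CPM in RSF1 and 42.5 ± 1.05 CPM in RSF1delUAB cells, a log2 fold change of −0.30 (SE 0.078, adjusted p = 0.00449). The neighbours of CHRAC1 moved as far, with a median of −0.36 over 92 genes within 5 Mb, and relative to the 8q arm CHRAC1 was at −0.08 (adjusted p = 0.426).

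BAZ1B averaged 119 ± 14.8 CPM in RSF1 and 102 ± 1.35 CPM in RSF1delUAB cells, 0.22 on the log2 scale (SE 0.077, adjusted p = 0.0297), and the groups overlapped. RSF1 replicate 1 lay among the RSF1delUAB libraries at 102 CPM, and RSF1 replicates 2 and 3 lay above them at 128 and 127 CPM. That call ended without RSF1 replicate 2 (0.17), without RSF1 replicate 3 (0.17) and without RSF1delUAB replicate 1 (0.21), 2 (0.22) or 3 (0.23), with adjusted p of 0.0676 to 0.116. Over all 17 alternatives the BAZ1B value ran from 0.17 to 0.32, with adjusted p down to 5.17e-06. SMARCA5 was 0.17 higher (SE 0.069, adjusted p = 0.0507, 95% interval 0.03 to 0.32) and did not pass, although the groups did not overlap. It passed without RSF1 replicate 1 (0.15), without RSF1 replicate 3 (0.20) and without RSF1delUAB replicate 2 (0.22), with adjusted p of 0.0355, 0.0406 and 0.0447. SMARCA1 differed by −0.05 (adjusted p = 0.582, interval −0.17 to 0.08), BAZ2A by 0.05 (adjusted p = 0.725, interval −0.16 to 0.26) and POLE3 by 0.07 (adjusted p = 0.470, interval −0.08 to 0.23). BPTF differed by −0.24 (adjusted p = 0.0668, interval −0.45 to −0.03), and it passed at −0.31 without RSF1 replicate 2 and at −0.33 without RSF1 replicate 3. Without RSF1 replicate 1, the library low in BPTF, the difference was −0.08 (adjusted p = 0.249), and relative to the 17q arm it was −0.0059 (adjusted p = 0.973). BAZ2A was 0.21 higher without RSF1 replicate 1 (adjusted p = 0.00147).

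In OVCAR3 1 member differed between cells with the UAB peptide and their controls. BPTF was at 180.4 and 139.8 CPM in UAB, against 81.1 and 122.9 CPM in control libraries, with no overlap. It rose by 0.65 on the log2 scale (SE 0.184, adjusted p = 0.0348, 95% interval 0.26 to 1.04), the only 1 of 9 tested members to pass, where 10.9% of all 18359 genes did (5.45% higher and 5.46% lower). The call ended without control replicate 1 (0.38, adjusted p = 0.317) and without UAB replicate 1 (0.46, adjusted p = 0.109), and also with a minimum count of 1 in the filter (adjusted p = 0.0954). The 71 other tested genes within 5 Mb of BPTF had a median of 0.34, and 19.7% of them were called higher, where 5.45% of all genes were.

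SMARCA1 was at 155 and 146 CPM in UAB, against 122 and 132 CPM in OVCAR3 control libraries. The groups did not overlap, but the log2 difference of 0.25 (SE 0.130, adjusted p = 0.257, interval −0.03 to 0.53) did not pass. SMARCA5 was at 141 and 127 CPM in UAB, against 143 and 149 CPM in control libraries, a log2 difference of −0.12 (adjusted p = 0.626, interval −0.40 to 0.16). The directions of both were those seen with the constructs in SKOV3, without passing the test. BAZ1B, BAZ2A and CHRAC1 also kept their direction, whereas BAZ1A and POLE3 went the opposite way. SMARCA5 lay near the median of the 465 other tested genes of 4q, −0.10. The groups did not overlap for SMARCA5, BAZ1B and CHRAC1 either, and none of these passed. CHRAC1 averaged 62.7 ± 0.795 CPM in UAB and 70.3 ± 1.99 CPM in control libraries, a difference of −0.17 (adjusted p = 0.472). BAZ1A, BAZ1B, BAZ2A and POLE3 differed by 0.22, −0.15, −0.06 and 0.09, with adjusted p of 0.399, 0.531, 0.843 and 0.737. With 2 libraries per group and a biological coefficient of variation of 0.124 in OVCAR3, against 3 libraries and 0.0734 in SKOV3, intervals were wider.

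The other genes of the family were BAZ2B, a bromodomain subunit like BAZ2A, the histone-binding WD40 proteins RBBP4 and RBBP7, and HMGXB4 and C17orf49, which are found with NURF. Of these 5 genes, 2 rose and 2 fell with RSF1 against control, and 2 rose and none fell with RSF1delUAB, where 67.3% and 66.6% of all genes passed. HMGXB4 rose by 0.51 (adjusted p = 8.67e-06) and 0.44 (adjusted p = 4.17e-05), while its 116 neighbours within 5 Mb had medians of 1.07 and 1.06. BAZ2B rose by 0.25 with RSF1 (adjusted p = 0.0351) and by 0.60 with RSF1delUAB (adjusted p = 2.27e-05). It was at 29.3, 38.6 and 37.4 CPM in RSF1 and at 28.5, 28.2 and 32.0 CPM in control libraries, so RSF1 replicate 1 lay within the controls. Without that replicate BAZ2B was at 0.36 (adjusted p = 2.27e-04), and the call ended without control replicate 1 (0.22) or 2 (0.22) and without RSF1 replicate 2 (0.19) or 3 (0.21). RBBP4 fell by 0.25 (adjusted p = 0.00163) and RBBP7 by 0.17 (adjusted p = 0.0221) with RSF1, against −0.03 and 0.03 with RSF1delUAB. RBBP7 was at 341, 304 and 299 CPM in RSF1 and at 348, 363 and 351 CPM in control libraries. It was at −0.23 without RSF1 replicate 1 (adjusted p = 4.68e-05), and its call ended without control replicate 2 (−0.15) or 3 (−0.17) and without RSF1 replicate 2 (−0.13) or 3 (−0.13). C17orf49 averaged under 1 CPM, overlaps a read-through gene and is uncertain. Between RSF1 and RSF1delUAB cells BAZ2B, RBBP4 and RBBP7 were lower in RSF1, by −0.35, −0.23 and −0.20 (adjusted p = 0.00736, 0.00781 and 0.0170), and HMGXB4 differed by 0.06 (adjusted p = 0.550). There the call of RBBP7 ended without RSF1 replicate 2 (−0.16) or 3 (−0.16) or RSF1delUAB replicate 1 (−0.18), and that of RBBP4 without RSF1delUAB replicate 2 (−0.20). None of the 4 tested in OVCAR3 passed; RBBP4 was at 0.39 (adjusted p = 0.0667) and BAZ2B at 0.58 (adjusted p = 0.0796). BAZ2B passed there without control replicate 2 (0.94) or UAB replicate 2 (0.78). Leaving out libraries for these 5 genes was chosen after seeing the data.

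Other remodeller families were read in the same way. With RSF1 against control, 10 of 27 tested SWI/SNF subunits rose and 11 fell, 6 of 20 CHD and NuRD genes rose and 8 fell, and 6 of 22 INO80 and SRCAP genes rose and 10 fell. The shares called, 77.8%, 70% and 72.7%, lay near the 67.3% of all genes. With RSF1delUAB, 11 rose and 10 fell, 7 rose and 7 fell, and 6 rose and 9 fell, where 66.6% of all genes passed. The risen and the fallen gene with the smallest adjusted p under RSF1 were BCL7C (0.99) and PBRM1 (−1.22) in the first list, MTA3 (0.52) and CDK2AP1 (−1.18) in the second, and RUVBL2 (1.03) and INO80C (−1.63) in the third. In OVCAR3, 3 of 26, 1 of 20 and 1 of 22 rose and none fell, where 5.45% of all genes rose and 5.46% fell.

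**Figure D4:**
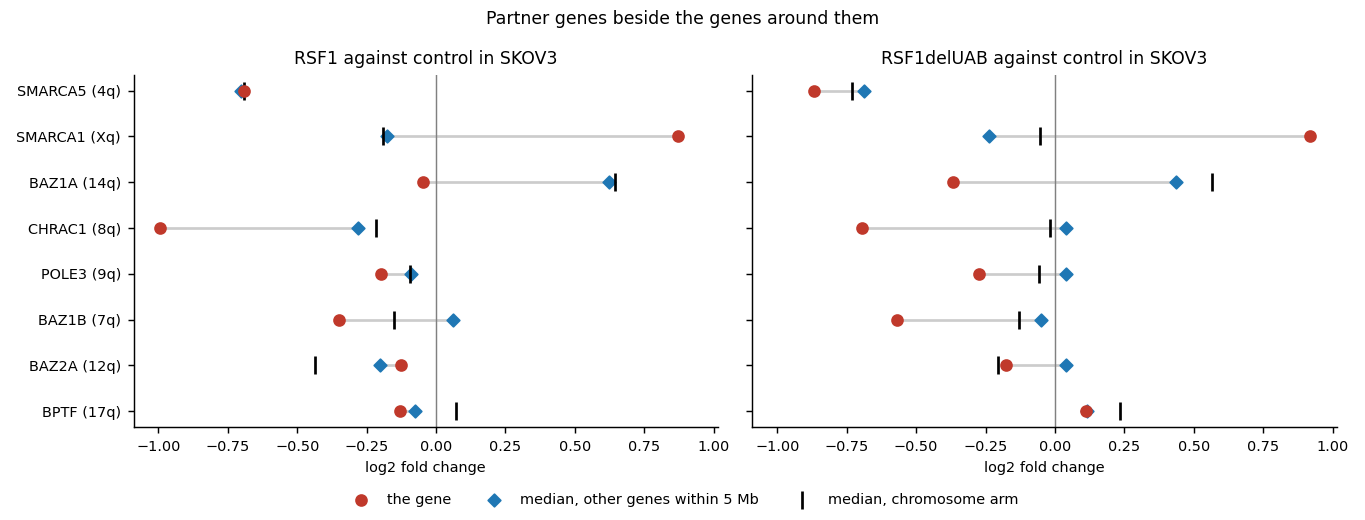
Log2 fold change of each of the 8 tested partner genes (circles) beside the median of the other tested genes within 5 Mb of its start (diamonds) and of its chromosome arm (bars), for RSF1 and RSF1delUAB against control in SKOV3. SMARCA5 lies on its arm's median of −0.69 with RSF1. SMARCA1 lies above and BAZ1A, BAZ1B, CHRAC1 and POLE3 lie below their surroundings in both panels.

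Set beside each other per length, the members kept no single order between groups. In SKOV3 controls POLE3 was highest at 41.5 ± 2.10 CPM per kilobase, followed by SMARCA5 (26.6 ± 1.33), BAZ1B (21.4 ± 0.379) and CHRAC1 (20.8 ± 1.19), and RSF1 was next to last at 2.82 ± 0.198. BAZ1B and CHRAC1 did not differ beyond their spread there. In RSF1 cells RSF1 was highest at 46.1 ± 4.94, followed by POLE3 (36.1 ± 3.21) and SMARCA1 (35.7 ± 0.249), which did not differ beyond their spread. RSF1delUAB cells had SMARCA1 (36.9 ± 1.37) above POLE3 (34.3 ± 0.563) and RSF1 (31.3 ± 1.64). The rank of RSF1 in cells with a construct depends on the construct's unknown length and is not settled by these values. In OVCAR3, RSF1 was the highest member in both groups, at 44.1 ± 9.14 in UAB and 40.8 ± 6.49 in control libraries. SMARCA1 was next there, at 34.5 ± 1.56 in UAB and 29.1 ± 1.68 in control libraries, and the difference from RSF1 was within the spread in UAB libraries. CECR2 was last in every group.

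The order of RSF1 over the SKOV3 groups was RSF1 cells, then RSF1delUAB cells, then controls, and none of the 8 tested partners had that order of mean CPM. SMARCA1 was nearest, above control in both groups with a construct, and its place between the constructs was within the spread (−0.05, adjusted p = 0.582). Relative to its chromosome arm SMARCA1 took the order of RSF1, at 1.06 with RSF1 and 0.99 with RSF1delUAB against control, with a difference of 0.07 between the constructs that did not pass either (adjusted p = 0.422). The libraries fall into groups by RSF1 level, so no correlation over them is given. Likeness was measured as the root mean square difference from RSF1 in log2 CPM, each gene centred on its control mean, over the 9 SKOV3 libraries and 11263 genes. Among the 5 closest genes were EPS8L1 (0.219), C3 (0.242), TNK1 (0.254) and SPATA20 (0.257). For the partners this measure largely restates their fold changes against control and is no separate result. By it SMARCA1 was the closest partner, at 2.34, rank 1210, and SMARCA5 (3.70) and CHRAC1 (3.77) were the farthest, at ranks 9830 and 10085.

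Within the RSF1 group, RSF1, BPTF and BAZ2A varied in the direction of other long genes. In RSF1 replicate 1, genes of at least 8 kb of exon stood 0.22 log2 units lower than genes under 2 kb relative to the group mean (3784 and 2665 genes), whereas they stood higher by 0.11 and 0.10 in RSF1 replicates 2 and 3. In the other 6 SKOV3 libraries this difference was −0.04 to 0.03. RSF1, BPTF and BAZ2A, each over 10 kb of exon, were lowest in replicate 1 of the RSF1 group. SMARCA5, at 8146 bases also in the class of at least 8 kb, went the other way there and was highest in replicate 1. In OVCAR3 the difference was 0.15 and −0.15 in UAB replicates 1 and 2, against −0.08 and 0.08 in control replicates 1 and 2, and RSF1, BPTF, BAZ2A, SMARCA5 and BAZ1A were higher in UAB replicate 1 and control replicate 2 than in their group mates. With an offset for each of 10 classes of gene length, an alternative chosen after these values were seen, BPTF in OVCAR3 was at 0.56 (adjusted p = 0.0116). With that offset BPTF also passed in RSF1delUAB against control, at 0.17 (adjusted p = 0.0388), and in RSF1 against RSF1delUAB, at −0.20 (adjusted p = 0.0303).

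**Figure D5:**
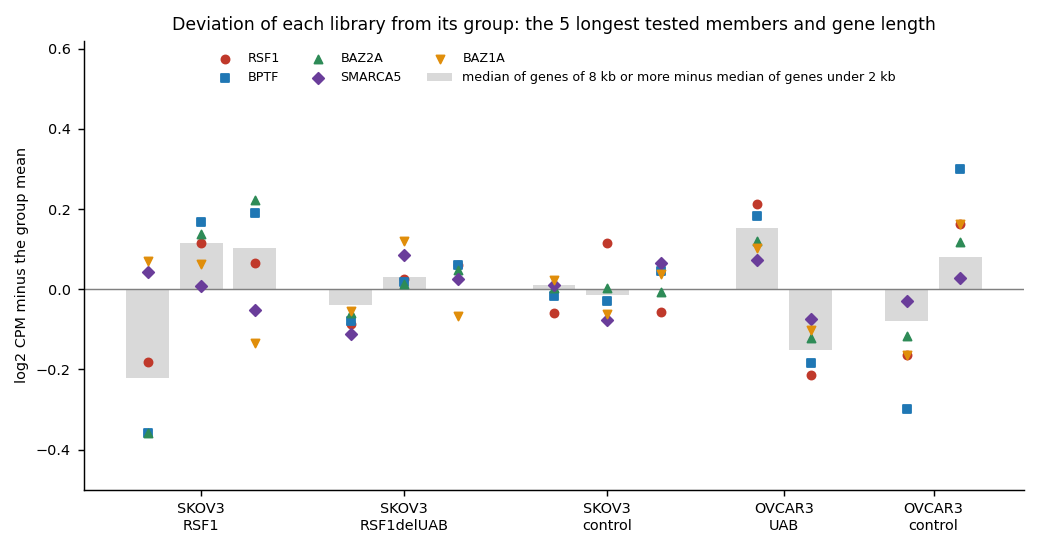
Deviation of RSF1, BPTF, BAZ2A, SMARCA5 and BAZ1A from their group mean in log2 CPM (points) in each of the 13 libraries by group, over bars for the median of genes of at least 8 kb minus that of genes under 2 kb. The bar of RSF1 replicate 1 is the lowest at −0.22, with RSF1, BPTF and BAZ2A below and SMARCA5 and BAZ1A above their group mean there.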

How the data were processed

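Poly-A RNA of 9 SKOV3 and 4 OVCAR3 libraries was measured. Each line has 1 table of raw read counts as the authors deposited it. FastQC, STAR 2.7.9a and Subread are named, with the builds GRCh38, hg38 and GRCm38, per the submitters' processing notes. Annotation release and use of strand are not stated in these sources. Of 58279 gene identifiers shared with GENCODE 29, 58219 overlap its GRCh38 positions, including all 10 members. The tables list 62703 genes, 62625 of them with a symbol, and 1 record split over several lines (ANK2) was rejoined. The labels gave the groups. No label explains a letter in the name of the column taken for OVCAR3 control replicate 2.

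The lines were fitted separately with edgeR 4.0.16 (quasi-likelihood test) in R 4.3.3 with limma 3.58.1, using TMM scaling and filterByExpr with a minimum count of 10. Benjamini-Hochberg adjustment ran over all genes tested, at a threshold of 0.05. This kept 16735 genes in SKOV3 (6 residual degrees of freedom) and 18359 in OVCAR3 (2). A prior count of 0.125 was used for fold changes, and log2 CPM for likeness and length checks 1 of 2. The fits were tested on simulated data. Since strand is not stated, reads of overlapping genes cannot be told apart: BAZ1A-AS1 covers 12.4% of the exon bases of BAZ1A and RBMS2 covers 5.47% of those of BAZ2A. SYNC covers 22.8% of those of RBBP4, with a mean of 145 counts over the SKOV3 libraries against 2665 for RBBP4. Of the 50-base words of RSF1 2.03%, and of BPTF 3.29%, also occur in another gene, as do 5.17% of those of BAZ2B and 4.74% of those of RBBP4.

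All 10 members and all 5 other ISWI subunits were named; of other lists the risen and fallen gene with the smallest adjusted p. Of the 5 genes most like RSF1, 1 is not reported here. Members and lists were chosen with earlier results of these data known. Promoter windows came from the RefSeq table. Its rows on chromosome 8, where CHRAC1 lies, were left out, and the rest matched 7 of 10 members. The alternatives left out each replicate in turn, took the replicate number as a block, set offsets per chromosome arm or gene length, fitted 2 groups alone, changed the scaling or count filter, or used DESeq2 1.42.0 or limma-voom. Correlations of deviations from the group means between same-numbered libraries were −0.04 to 0.07 in SKOV3 and −0.15 in OVCAR3, so the numbers were not taken to pair the libraries.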

Additional observations from a re-analysis of the deposited data

How the results depend on the processing

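Counts of genes or members past the threshold were recomputed 132 times and stayed within 1.5 times their main value in 127. The exceptions, 3 lower and 2 higher, were all in OVCAR3. With a minimum count of 1 the count of members was 0, and leaving out each replicate gave 0 to 1. With the replicate number as a block the members past the threshold numbered 6, 7, 5 and 1 in the 4 comparisons, and all genes 11164, 11007, 6333 and 1770; BPTF passed in RSF1 against RSF1delUAB (adjusted p = 0.0247), and no other member's call changed. With the crossed pairing in OVCAR3, chosen after seeing the data, 3 members and 5097 genes passed, which were the 2 higher exceptions.

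Of 594 fold changes of members, 535 kept direction and call, 18 lost the call, 23 gained it and 18 changed sign. With an offset per chromosome arm the sign changed for SMARCA5 (0.0157) and BAZ2A (0.30) in RSF1 against control, BAZ2A (0.0321) and BPTF (−0.17) in RSF1delUAB against control, SMARCA1 (0.0664) in RSF1 against RSF1delUAB and RSF1 (−0.00992) in OVCAR3. For BAZ1A in RSF1 against control it changed with upper quartile scaling (0.0328) and library totals (0.0104). Leaving out 1 library at a time gave ranges across 0 for BAZ1A (−0.0833 to 0.0227), BAZ2A (−0.23 to 0.0330) and BPTF (−0.21 to 0.0287) in RSF1 against control, the last value of BAZ1A without RSF1 replicate 3 and those of BAZ2A and BPTF without RSF1 replicate 1. BAZ2A ranged over −0.0582 to 0.21 in RSF1 against RSF1delUAB. In OVCAR3 RSF1 ranged over −0.11 to 0.31, BAZ2A over −0.18 to 0.0593 and POLE3 over −0.0157 to 0.21. The main values of these, SMARCA5 apart, had not passed the threshold. POLE3 in RSF1 against control lost its call in 7 of 17 alternatives, BAZ1B in RSF1 against RSF1delUAB in 6 of 17 and BPTF in OVCAR3 in 3 of 15, and SMARCA5 in RSF1 against RSF1delUAB gained one in 9 of 17. Fitted on the 2 groups alone, BAZ2A (−0.17, adjusted p = 0.00141) and BPTF (0.12, adjusted p = 0.0208) passed in RSF1delUAB against control. The cause was not tested. CECR2 fell below the count filter of the main fits.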
